A study of Mus musculus with 6 samples.

Results

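The loci described here are stretches of the mouse genome where the deposited RNA assemblies placed a transcript, and where the reference annotation has no exon. A transcript was taken when it had at least 200 exonic bases and shared no base with an exon of a GENCODE vM21 gene on its own strand, or on either strand when the assembly gave it no strand. Overlapping spans were merged across the 6 libraries, and a locus was kept when its highest transcript reached 1 FPKM (fragments scaled to transcript length and to library size) in any library. This left 2486 loci, built from the 3832 to 4239 transcripts per library that lay outside annotated exons, which were 11.7% to 13.0% of the 31699 to 33547 assembled transcripts of that length. The members were chosen by FPKM, so their levels are a description and carry no test except between the genotypes, which the choice did not use.

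The tissue was lumbar spinal cord, its ventral side, from C57BL/6 mice aged 5 weeks. WT mice gave 3 libraries and Gde2KO mice, in which Gdpd5 is disrupted, gave 3. Gdpd5 encodes GDE2, a membrane enzyme that cleaves the glycosylphosphatidylinositol anchors of surface proteins. The labels do not say how the gene was disrupted, whether animals were pooled, or which sex they were, and they do not tie replicates to separate animals, so p-values measure only the spread between these samples.

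A de novo assembler such as Cufflinks builds transcripts from the alignments alone. It can recover genes that an annotation lacks, and it can also leave the far end of a known gene, or a retained stretch of intron, as a separate piece. Transcription past an annotated end is common in the nervous system, where many neuronal mRNAs carry long last exons. Primary transcripts of microRNAs (miRNAs) are another class often missing from gene annotations, since the hairpin is cut out of a longer RNA that is then degraded. In each case the neighbouring gene, the strand and the number of exons are what a reader has to place the piece.

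A few RefSeq sequences show what kinds of element lie beside the loci, which cannot be seen from levels. For 5 miRNAs known from neural tissue or the Hox clusters, each with a hairpin inside or within 1 kb of a locus, these are the mature 5p strands (RefSeq, GRCm38.p6, 5′ to 3′), with the seed, bases 2 to 8, in capitals. They have 5 different seeds, so they group into 5 families, and miR-196a-5p is made from hairpins beside 2 loci.
miR-219a-5p: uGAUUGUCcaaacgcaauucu
miR-9-5p: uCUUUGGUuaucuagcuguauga
miR-218-5p: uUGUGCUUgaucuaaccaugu
miR-196a-5p: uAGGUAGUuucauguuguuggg
miR-10b-5p: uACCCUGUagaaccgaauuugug

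The second set shows the 250 bases before a RefSeq transcription start for 3 spliced loci whose assembled first base lay 8, 9 and 14 bases from that start. They were chosen after the values were seen, to show near starts of unlike base composition. Capitals mark the letters TATAAA or CCAAT and their reverse complements TTTATA and ATTGG, the motifs searched on both strands. A window with several matches, overlapping or not, counts as 1.
Gm34267, chr10:22058655-22058904, minus strand: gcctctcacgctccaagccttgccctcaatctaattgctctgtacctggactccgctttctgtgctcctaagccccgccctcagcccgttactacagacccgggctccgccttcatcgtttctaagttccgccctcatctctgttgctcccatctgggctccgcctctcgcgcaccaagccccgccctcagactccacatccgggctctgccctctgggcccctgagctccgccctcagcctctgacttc
Snhg7, chr2:26640245-26640494, minus strand: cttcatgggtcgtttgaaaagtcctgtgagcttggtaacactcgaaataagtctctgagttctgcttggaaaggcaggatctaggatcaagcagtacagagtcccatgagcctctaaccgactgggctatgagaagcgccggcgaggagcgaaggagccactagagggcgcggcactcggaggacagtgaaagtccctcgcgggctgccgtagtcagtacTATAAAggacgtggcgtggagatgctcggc
Gm10509, chr17:21679627-21679876, plus strand: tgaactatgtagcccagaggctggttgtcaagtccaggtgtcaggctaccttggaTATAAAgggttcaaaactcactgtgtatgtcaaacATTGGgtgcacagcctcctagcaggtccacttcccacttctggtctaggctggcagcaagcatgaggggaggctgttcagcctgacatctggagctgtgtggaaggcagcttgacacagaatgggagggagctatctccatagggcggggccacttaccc

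The windows before Gm34267 and Snhg7 held 14 and 16 CpG and the window before Gm10509 held 1. TATAAA lay 30 bases before the Snhg7 start, and 195 bases before the Gm10509 start. Among the 651 loci with a strand, 49 began within 500 bases of a RefSeq start on that strand, and 46 of these had more than 1 exon. TATAAA in either orientation was present in 10 of the 49 windows, against 12.4% of all 32817 RefSeq promoter windows, and CCAAT in 11 of 49, against 33.8%. The median number of CpG was 6 in both sets. A match says only that the letters are there.

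Depth and labels were checked on the whole files. Gdpd5 stood at 5.58, 6.66 and 5.95 FPKM in WT replicates 1 to 3 and at 1.23, 1.19 and 0.947 in Gde2KO replicates 1 to 3, a log2 difference of -2.31 (SE 0.13, limma adjusted p = 0.0125). The files give no read totals. The assembler's own read depth over outside transcripts had a median of 5.78 to 6.35 per library. The 4 sensory ganglion markers were listed at 0 in every library, skeletal muscle markers summed to at most 0.881 FPKM, and neuronal and mature oligodendrocyte markers summed to at least 2748 and 6543 FPKM. Summed levels of 2 lists did not overlap between genotypes: 6 astrocyte markers at 1965 to 2125 FPKM in WT and 1660.1 to 1848 in Gde2KO, and 3 mural cell markers at 52.4 to 57.4 and 48.1 to 52.1. Of the astrocyte markers, Aldoc alone had separate genotypes, at 1005, 979 and 1054 FPKM in WT and 792, 738 and 595 in Gde2KO, and Gfap, Aqp4, Aldh1l1, Slc1a2 and Slc1a3 overlapped. The part of these lists in any result below was not tested. In bulk RNA fewer cells of a type and less RNA per cell cannot be told apart. Gde2KO replicate 3 stood apart in its assembly: 566 loci lay under a gene transcript there, against 394 to 462 in the other 5 libraries. Gde2KO replicate 1 stood apart in sex-linked genes, with Ddx3y of chromosome Y at 21.5 FPKM and Xist, the RNA of the inactive X, listed at 0. In the other 5 libraries Ddx3y was listed at 0 and Xist read 1.21 to 2.58.

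Most of the loci were single pieces without introns. Single-exon loci numbered 2253 (90.6%), and 233 had more than 1 exon, with 77 having 3 or more and 7 at most. By place, 1160 (46.7%) were intergenic, 1215 (48.9%) lay wholly inside an intron, and the other 4.47%, 60 single-exon and 51 spliced loci, crossed the boundary of a gene or contained one. The assembly gave no strand to 1798 loci (72.3%), and 37 merged pieces of both strands. An annotated exon on the opposite strand was touched by 205 loci (8.25%). No source used here gives the strandedness of the libraries, so these 205 cannot be told apart from reads of the opposite gene.

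**Figure D1:**
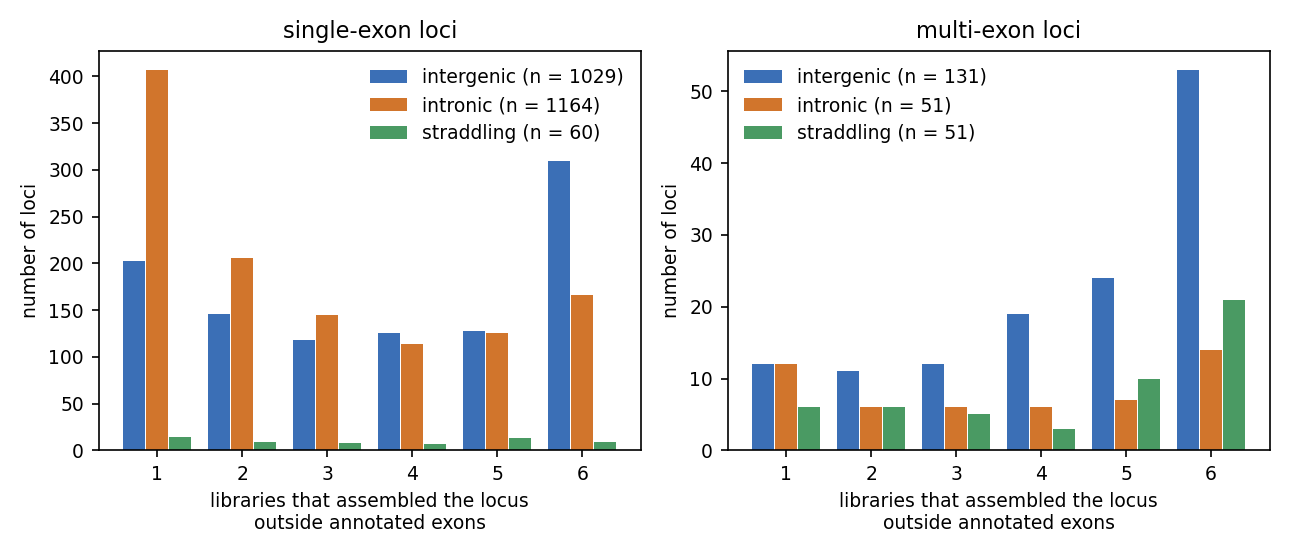
Number of loci, for single-exon (left) and spliced (right) loci by place, against the number of libraries in which the locus was assembled outside annotated exons. Loci found in 1 library (653) and in 6 libraries (572) are the most frequent, and intronic single-exon loci are the commonest class among those found in 1.

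Recurrence differed by class. A total of 572 loci (23.0%) were assembled outside annotated exons in all 6 libraries and 653 (26.3%) in 1. The plot of classes by number of libraries splits these totals by class, and the bars of spliced loci at 1 library are short (12 intergenic and 12 intronic). Of the 131 spliced intergenic loci, 53 were found in all 6 libraries, against 309 of 1029 single-exon intergenic loci and 166 of 1164 single-exon intronic loci. Single-exon intronic loci were also the shortest, with a median of 643 exonic bases, against 1136 for single-exon and 1144 for spliced intergenic loci. Found in 1 library were 407 of the 1164, and 12 of the 131 spliced intergenic loci.

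The loci were mostly weak. The highest FPKM of a locus in any library had a median of 1.67. It lay between 1 and 2 for 1503 loci (60.5%), between 2 and 5 for 768, between 5 and 10 for 135, between 10 and 100 for 65, and at 100 or more for 15. The threshold cut through a dense range: 292 loci had a highest value between 1 and 1.1, with the lowest at 1.0003, and a further 2740 loci just outside the rule lay between 0.5 and 1. The number of loci is therefore a property of the threshold as much as of the tissue's RNA, with 5226 at 0.5 FPKM and 983 at 2.

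Where the intergenic loci lay depended on whether they were spliced. The median gap from a single-exon intergenic locus to the nearest annotated gene was 0.749 kb (quartiles 0.16 and 2.31), and 589 of 1029 (57.2%) lay within 1 kb. Spliced intergenic loci had a median gap of 5.46 kb (quartiles 0.904 and 21.6), and 35 of 131 (26.7%) lay within 1 kb. The side differed as well: 756 single-exon loci (73.5%) lay beyond the 3' end of the nearest gene, but 55 spliced ones (42.0%) did. Of the 35 spliced loci within 1 kb, 28 lay before a 5' end. Over 50 kb from any GENCODE gene were 14 spliced loci (10.7%) and 11 single-exon loci (1.07%).

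**Figure D2:**
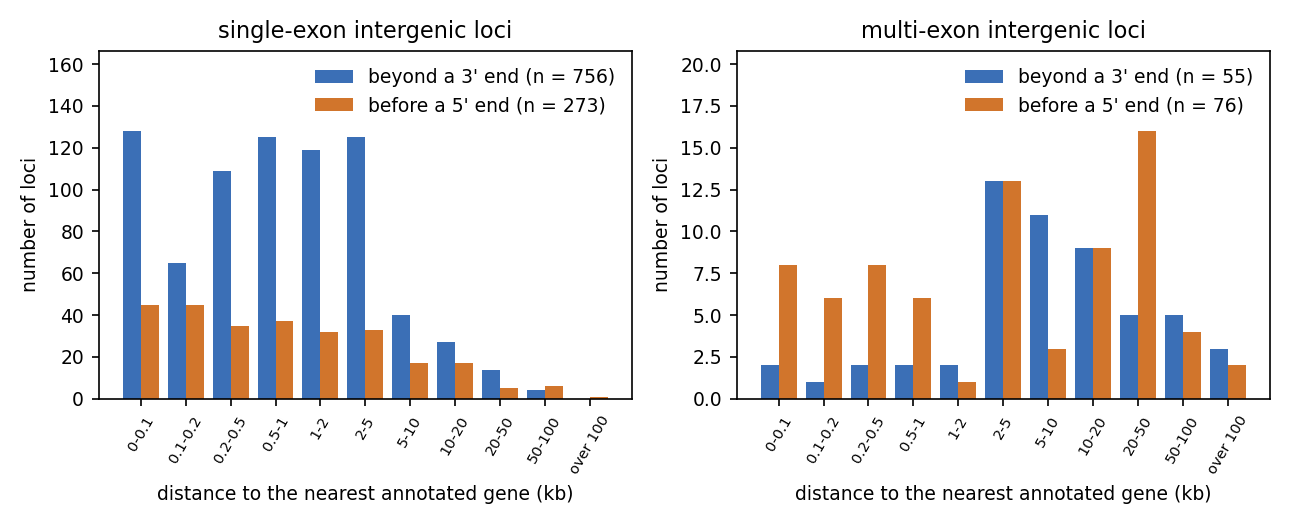
Number of intergenic loci by distance in kb to the nearest annotated gene, in bins of unequal width, for single-exon (left) and spliced (right) loci, with bars split by side of the gene. Single-exon loci crowd within 1 kb beyond 3' ends (427 of 1029), and spliced loci are spread wider and lie more often before 5' ends (76 of 131).

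Loci within 10 kb beyond the end of a gene on a permitted strand numbered 791, or 31.8% of the 2486, and 424 of them were within 1 kb. Protein-coding genes stood before 624 of the 791. The histograms of distance show this as the tall bars of single-exon loci nearest to 3' ends.

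RefSeq, a second annotation, already had a gene for many spliced loci. Of the 131 spliced intergenic loci, 71 (54.2%) overlapped a RefSeq gene whose symbol is not in GENCODE vM21, against 77 of 1029 (7.48%) single-exon ones. No RefSeq gene at all lay under 610 single-exon intergenic loci (59.3%) and 42 spliced ones (32.1%). A further 213 intergenic loci (18.4%) fell wholly inside the RefSeq span of their nearest GENCODE gene, that is, in a stretch that RefSeq gives to the gene and GENCODE does not. Over all classes, 268 loci (10.8%) overlapped a RefSeq gene without a GENCODE symbol.

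Intronic loci were spread over 834 host genes, and 617 of these held 1 locus. Hosts of 3 or more loci numbered 93, led by Purg with 9, Orc3 (an origin recognition complex subunit) with 8, and Asph (an aspartyl hydroxylase of the endoplasmic reticulum) with 7, tied with 3 genes known by clone names. Strand was unknown for 894 of the 1215, opposite to the host for 247 and the same for 74. Protein-coding genes hosted 1016. The marker lists for cell types met 1 host, Opalin, a membrane protein of mature oligodendrocytes, with the locus chr19:41061723-41062522.

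A piece that 1 library assembled apart was often part of a gene transcript in another. Such a locus is called joined in a library where an assembled transcript that touches an annotated exon also ran over it, and separate where it did not. The level of a locus was the FPKM summed at each of its counted bases over all transcripts there, averaged over those bases, so a joined locus takes the value of the gene's transcript. In at least 1 library 986 loci were joined, and 1500 (60.3%) never were. Loci beyond a gene end were joined in at least 1 library in 45.1% of cases, intronic loci in 37.6% and other intergenic loci in 36.3%. Found separately in all 6 libraries and never joined were 460 loci, 68 of them spliced (14.8%, against 9.37% of all loci), and 39 of the 68 overlapped a RefSeq gene without a GENCODE symbol.

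Joining went with a higher level of the locus and a lower level of the gene beside it. In 750 loci with joined libraries (at least 50% of the locus covered) and separate ones, the level was higher in the joined libraries in 449 (59.9%), and over 4-fold higher in 127 (16.9%). The median log2 difference, joined minus separate, was 0.21 (quartiles -0.27 and 1.40). The kinds of locus differed. For 212 loci beyond a gene end the locus was higher when joined in 152 (71.7%, median log2 0.61), while the gene was lower in 153 (72.2%, median log2 -0.16). For 87 other intergenic loci the median log2 was 1.79 with 71 higher, and for 273 intronic loci it was -0.06 with 133 higher. These are descriptions over loci that share libraries.

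The level relative to the gene shows the size of that step. Loci beyond a gene end stood at a median of 29.2% of the gene's level in libraries where they were separate and 93.4% where they were joined. Loci beyond a gene end that no library joined were lower still, with a median of 7.54% of the gene's level over 244 loci. Intronic loci that were never joined stood at a median of 23.3% of their host (244 loci).

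**Figure D3:**
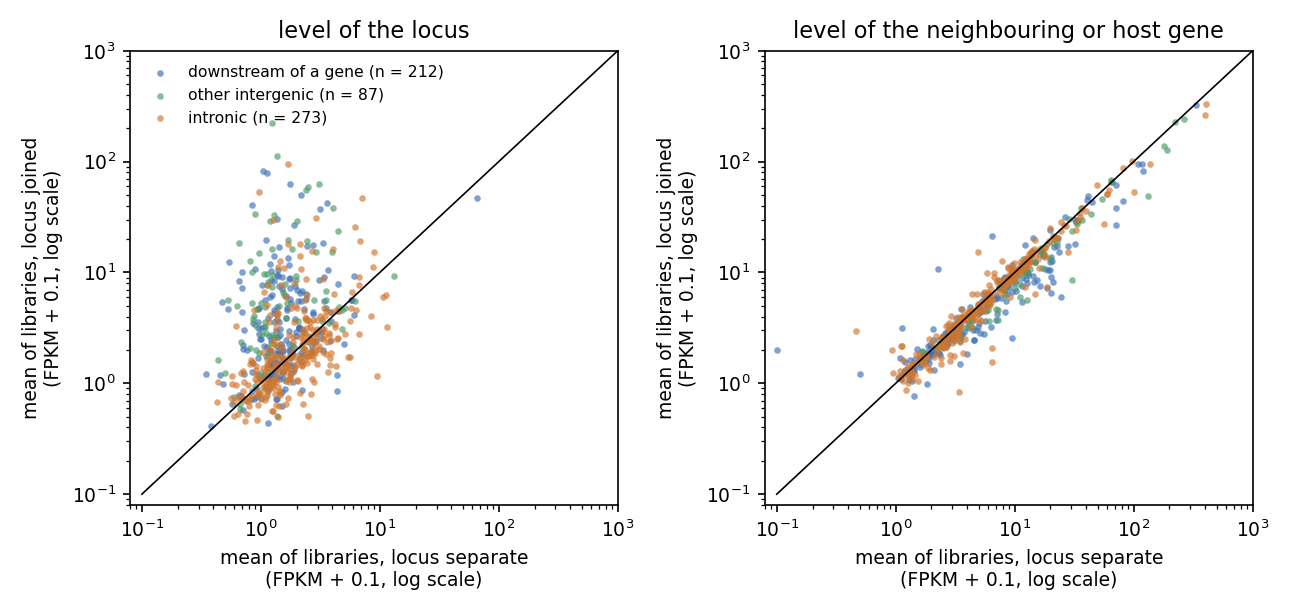
Mean level in libraries where a gene transcript ran over the locus (vertical) against libraries where it was separate (horizontal), as FPKM + 0.1 on log axes, for the locus (left) and for the gene beside or around it (right), 1 point per locus, coloured by place, with the line of equality. In the left panel 152 of 212 loci beyond a gene end and 133 of 273 intronic loci lie above the line, and in the right panel 153 of the 212 lie below it.

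A few strongly expressed genes show the step clearly. They were chosen after their values were seen. Ywhaz encodes the signalling adaptor 14-3-3 zeta, and chr15:36769686-36770167 lies 602 bases beyond its 3' end. That locus stood at 84.1, 80.1 and 1.15 FPKM in WT replicates 1 to 3 and at 84.6, 0.723 and 0 in Gde2KO replicates 1 to 3. The 3 high libraries are the 3 in which it was joined, and both genotypes hold high and low libraries.

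Gjb1 encodes connexin 32, a gap junction protein of myelinating cells. The locus chrX:101386031-101387385, 401 bases beyond its end, stood at 3.84, 3.82 and 4.13 FPKM in the WT libraries and at 0, 2.29 and 42.5 in Gde2KO. The last library joined it, and there the Gjb1 level was 43.8 FPKM, against 77.0 to 90.5 in the other 5. The fragment total of a gene is its FPKM multiplied by length in kb and summed over its transcripts. That total takes in the bases of a locus in libraries that joined it, and leaves them out elsewhere. For Gjb1 it was 127 in that library and 134 to 152 in the others, a smaller gap than that in FPKM.

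Glul encodes glutamine synthetase, the enzyme of astrocytes that makes glutamine from glutamate. The locus chr1:153909737-153911891 begins 13 bases beyond its 3' end, and stood at 0.604, 0.865 and 0.620 FPKM in WT and 71.5, 75.2 and 0 in Gde2KO. The first 2 Gde2KO libraries joined it, and in those Glul read 399.8 and 421 FPKM, against 671 to 805 in WT and 678 in the third Gde2KO library. The Glul fragment total was 1858, 2108 and 2188 in WT and 1939.9, 2159 and 1859.7 in Gde2KO, and the genotypes overlap.

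Gabbr1 (a GABA-B receptor subunit) and Ugt8a (the galactosyltransferase of myelin galactolipids) had the same step. At chr17:37077366-37078117, beyond Gabbr1, the levels were 1.65, 46.8 and 65.6 FPKM in WT and 69.9, 67.7 and 0 in Gde2KO. At chr3:125857742-125859506, beyond Ugt8a, they were 0.760, 0.626 and 0.693 in WT and 36.4, 0.897 and 44.2 in Gde2KO, high in the 2 libraries that joined the locus. The genotypes do not overlap there (limma adjusted p = 0.887). The Ugt8a fragment total did not overlap either, at 557, 625 and 630.1 in WT and 639.6, 662 and 757 in Gde2KO.

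The median replicate spread differed by joining as well. The median SD of log2 level within a genotype was 0.36 for the 306 tested loci never joined, 0.87 for the 561 joined in 1 to 5 libraries, and 0.14 for 12899 annotated genes. It was 0.28 for the 10 tested loci joined in all 6 libraries. The upper quartiles were closer, at 1.82 for loci never joined and 1.97 for those joined in 1 to 5 libraries.

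The most strongly expressed members were short, unspliced and never joined. Of the 1790 loci with at least 200 counted bases (bases assembled in at least 3 libraries), 14 had a mean of 100 FPKM or more. The 13 of them that were never joined spanned 212 to 619 bases and made up 86.2% to 91.3% of the summed level of all measured loci in each library. The next never-joined locus stood at 72.6 FPKM. In the 9 of the 13 found in all 6 libraries the median coefficient of variation was 11.4%. Their sequence was not analysed here, and whether reads of repeated genes or other RNA collect there was not tested.

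Leading in the intergenic class was chr11:109011642-109012118, 2860 bases beyond Gm11668, at 4171, 3728 and 4767 FPKM in WT and 4142, 4352 and 4596 in Gde2KO. Close behind were chr3:5860333-5860826, 20005 bases beyond Gm37350, with 3467 to 4729.6 FPKM, and chr8:15519773-15520128, 17453 bases before Gm45677, with 3543 to 4655. The genotypes overlapped at each. The fourth, chr16:17222304-17222515, 8321 bases beyond Rimbp3, was listed at 0, 0 and 1958 FPKM in WT and 0, 1623 and 2053 in Gde2KO. It shows that such a locus can be missing altogether from an assembly, in either genotype.

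The fifth was of another kind. It lies at chr2:102658153-102658553, 105 bases before Slc1a2, the main glutamate transporter of astrocytes. It read 159, 1.14 and 0 FPKM in WT and 259, 250.4 and 0 in Gde2KO, and the 3 high libraries joined it to Slc1a2, whose own level was 222 to 267 FPKM.

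Introns held short loci of similar or higher level. One in Cdk8, the kinase of the Mediator complex, chr5:146260990-146261359, read 9605, 8946 and 9729 FPKM in WT and 9465, 0 and 11274 in Gde2KO, while Cdk8 itself had a mean of 4.62. Another, chr16:57391110-57391682, lies inside the overlapping genes Filip1l and Cmss1 and read 4959.7 to 6349 FPKM, with Filip1l at a mean of 1.07. Levels so far above the host were also found at chr7:130834417-130834649 in the growth factor receptor gene Fgfr2 (1548 to 2116 FPKM, host mean 26.0). The same held at chr13:44869571-44870086 in Jarid2, a gene of the Polycomb machinery (1386 to 1802 FPKM, host mean 3.94). The fifth, chr17:70963671-70963896 in Gm26561, read 1232 to 2086 FPKM.

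Among spliced intergenic loci the 5 with the highest means all overlapped a RefSeq gene. The locus chrX:70365580-70385828 has 5 exons on the minus strand, and RefSeq gives its span to Ids, the lysosomal iduronate sulfatase, whose GENCODE model begins closer in. It stood at 2.2, 9.33 and 45.7 FPKM in WT and 38.2, 43.9 and 44.5 in Gde2KO, and every library but WT replicate 1 joined it to a gene transcript. At chr14:70528393-70529816, 868 bases before Lgi3, a secreted protein gene, the level was 54.8, 0 and 2.31 in WT and 0, 0 and 54.8 in Gde2KO, high where joined. At both loci the highest levels were in joined libraries.

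At Robo1, a receptor for Slit guidance proteins, the locus lies before the GENCODE start and inside the RefSeq gene. The locus chr16:72027429-72145750 has 3 exons on the plus strand, was separate in all 6 libraries and was never joined. It stood at 5.11, 6.85 and 8.94 FPKM in WT and 6.33, 6.18 and 5.69 in Gde2KO, and the genotypes overlapped (log2 -0.13, SE 0.22). At chr19:38256934-38260429, 4106 bases before Lgi1, 2 exons lay on the minus strand over the RefSeq genes Gm32491 and Gm32574. The product of Lgi1 is secreted at synapses. The locus read 3.64, 5.88 and 7.03 FPKM in WT and 4.51, 5.36 and 3.60 in Gde2KO. The fifth, chr13:103921353-103924233, lies 838 bases before the ErbB2-binding protein gene Erbin. It is on the plus strand over the RefSeq gene D130037M23Rik. It read 1.38 to 1.90 FPKM in 5 libraries and 19.4 in Gde2KO replicate 3, the 1 library that joined it. RefSeq gives neither of these spans to Lgi1 or Erbin.

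Spliced intronic loci were led by chr7:60007498-60023579 inside Snrpn, an imprinted gene for a spliceosomal protein, at 12.5, 3.48 and 10.9 FPKM in WT and 7.53, 15.2 and 9.87 in Gde2KO, where Snrpn itself had a mean of 391. Opposite to Snx12, a sorting nexin gene, chrX:101199069-101206297 was the steadiest of the named loci of this class. It read 3.95, 3.61 and 3.49 FPKM in WT and 3.66, 3.66 and 3.74 in Gde2KO. Assembled exons together covered all 7229 bases of its span, the intron included. The locus was never joined, and the mean was 3.69 FPKM in both genotypes, with a log2 difference of 0.04 (SE 0.06).

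Further spliced intronic loci lay in Frmd4a, a scaffold protein gene, and Ank3, which encodes ankyrin G of the axon initial segment. In Frmd4a, chr2:4285253-4288337 read 2.61, 5.39 and 3.47 FPKM in WT and 1.04, 2.37 and 2.39 in Gde2KO. These do not overlap, the Gde2KO libraries alone joined it, and limma gave an adjusted p of 0.887. In Ank3, chr10:69541929-69556461 on the opposite strand read 3.78, 0 and 4.43 in WT and 2.77, 3.25 and 2.39 in Gde2KO, and the groups overlap.

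The loci with the most exons in 1 transcript, among those found in at least 3 libraries, were low and steady. The locus chrX:95960501-95968718, 3538 bases before Las1l, a ribosome biogenesis gene, had 5 exons and read 1.15 to 1.59 FPKM. Inside D030068K23Rik, chr8:109145221-109247798 had 5 exons and read 0.877 to 1.54. Far from any GENCODE gene, chr7:36905045-36961741 lay 131491 bases beyond Tshz3, a zinc finger factor gene, with 5 exons and 0.267 to 0.533 FPKM. RefSeq has Gm36464, Gm36567 and Gm36656 beneath it. The locus with the Gm10509 start printed above, chr17:21679891-21687846, had 4 exons and read 1.82 to 2.92. At chr5:42536790-42686000 4 exons read 1.68 to 2.51 FPKM with no RefSeq gene beneath. The genotypes overlapped at each of these 5.

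The next 4 loci were chosen after their values were seen. The locus chr15:72802064-72810558, in an intron of Trappc9 on the plus strand, runs over annotated Peg13, an imprinted noncoding RNA of the minus strand. It read 73.6, 72.7 and 77.7 FPKM in WT and 75.1, 78.6 and 58.2 in Gde2KO, and since the library strand is not known it cannot be told apart from Peg13 itself. In an intron of the coatomer gene Copg2, chr6:30802810-30808991 read 56.9, 59.2 and 51.5 in WT and 53.1, 49.4 and 57.3 in Gde2KO. Neither locus was joined in any library. The locus of the Gm34267 start, chr10:22054637-22058662, read 1.23 to 3.15 FPKM. The locus of the Snhg7 start, chr2:26637198-26640235, which contains the small nucleolar RNA gene Snora43, read 0.605 to 1.42.

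Of the 1003 mouse miRNA hairpins in the RefSeq table, 15 lay inside or within 1 kb of 13 loci, all named after their values were seen. Among loci that contain a hairpin the highest level was at miR-219a-2, a miRNA that promotes oligodendrocyte differentiation. Its locus, chr2:29845008-29846549 on the minus strand, was assembled in all 6 libraries with 2 exons and the identical 905-base intron, chr2:29845241-29846145, and the hairpin (chr2:29845631-29845727) sits inside that intron. In the assembled model the printed miR-219a-5p sequence therefore lies in the intron.

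The miR-219a-2 locus stood at 41.8, 43.5 and 58.9 FPKM in WT (48.1 ± 9.41, SD, n = 3) and at 32.7, 41.3 and 27.4 in Gde2KO (33.8 ± 7.02, SD, n = 3). The deposited values do not overlap, but after scaling of the libraries they do. The log2 difference was -0.47 (SE 0.21) and did not pass limma's test (adjusted p = 0.887).

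Other miRNA loci were weaker. Next to miR-218-2, a miRNA of motor neurons in an intron of Slit3, chr11:35616926-35618930 begins 1 base after the hairpin and read 0, 2.62 and 3.27 FPKM in WT and 3.23, 2.46 and 2.73 in Gde2KO. Beside miR-9-1, a miRNA of neural progenitors, chr3:88215701-88219009 read 0.681 to 1.63. The loci beside miR-196a-1 and miR-196a-2, which lie in the Hoxb and Hoxc clusters, read 1.3 to 2.26 and 0 to 2.52. The locus beside miR-10b in the Hoxd cluster read 0.347 to 1.35. Only the miR-219a-2 locus and one 405 bases from miR-7078, inside the RefSeq span of Cmip, were above 10 FPKM, and the latter read 39.5 to 66.0.

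Hox clusters, whose genes mark position along the cord, held 10 loci, with 3 in Hoxb, 2 in Hoxc, 5 in Hoxd and 0 in Hoxa. Each had a single exon, with mean levels of 0.764 to 1.90 FPKM, and 3 were never joined.

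The genotype comparison asked whether any locus changed when Gdpd5 was disrupted. It was made over 13772 features, 12895 annotated genes and the 877 loci (35.3% of 2486) that had at least 200 counted bases and a mean of at least 1 FPKM. No locus passed an adjusted p of 0.05 in limma (0 of 877, 0.0%, against 0.0726% of all features tested, or 10 annotated genes). The smallest adjusted p of a locus was 0.0959. An unadjusted p under 0.05 was reached by 46 loci (5.25%, against 3.81% of all features). In 78 loci (8.89%) the 3 libraries of 1 genotype all lay above the 3 of the other, against 10.7% of all features. In 33 of the 78 (3.76% of loci, against 4.97% of all features) Gde2KO was higher, and in 45 (5.13%, against 5.74%) it was lower. These shares are near the background.

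Differences had no common direction, with 440 loci higher and 437 lower and a median log2 of 0.00. What the test could resolve differed between never-joined and partly joined loci. Whether joining itself, low levels or values of 0 made this difference was not tested. The 95% interval of a log2 difference reached a median of 0.69 to either side for the 306 tested loci never joined, 28 of them without overlap (9.15%), and 1.54 to either side for the 561 joined in 1 to 5 libraries, 47 without overlap (8.38%). A change of 2-fold in a single joined locus was therefore mostly not detectable here. The intervals are not adjusted for the 13772 features tested, so the adjusted test resolved less, also at never-joined loci. One of these, in Paqr3, had a log2 of -1.10 (SE 0.19) and a limma adjusted p of 0.488.

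**Figure D4:**
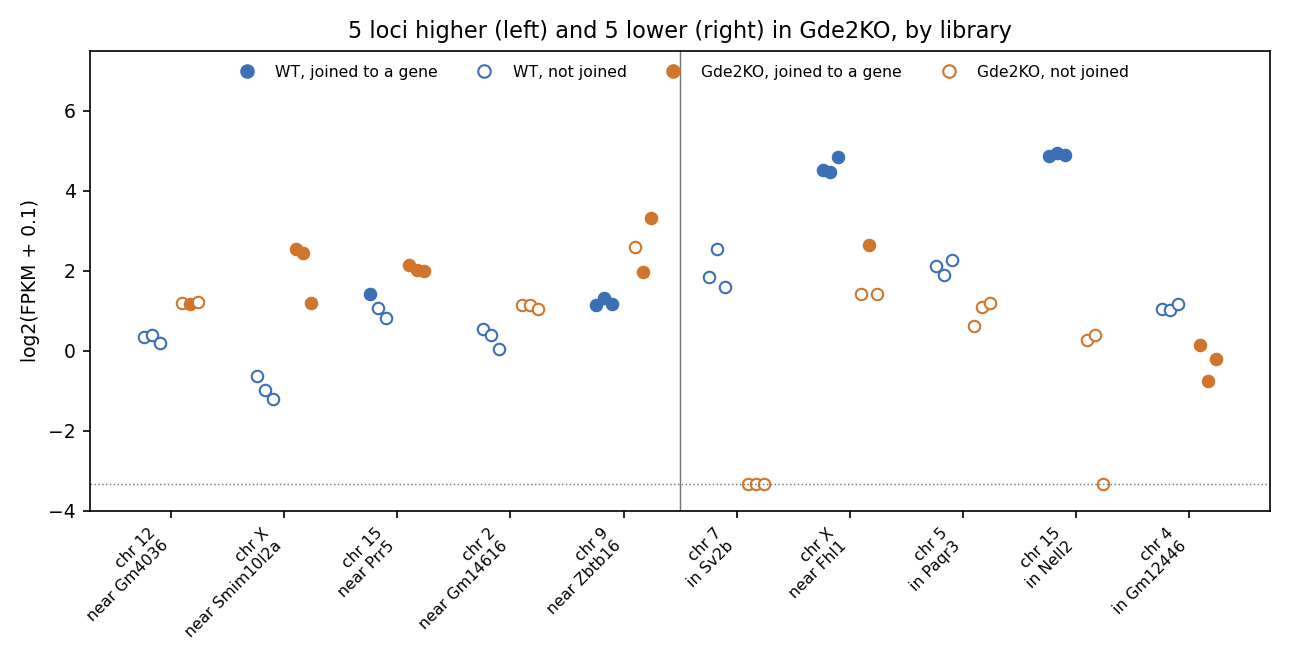
Levels, as log2(FPKM + 0.1), of the 5 loci higher and the 5 lower in Gde2KO with the smallest p among those whose genotypes do not overlap, 1 point per library, filled where the locus was joined to a gene transcript and open where it was not; the dotted line is a level of 0. The Nell2 and Smim10l2a loci are filled in 1 genotype and open in the other, the Sv2b, Paqr3 and Gm14616 loci are open throughout, and no locus passed the adjusted test.

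The locus inside Nell2 had the largest difference among the 10 loci with the smallest p for which a fold can be given. Nell2 is a secreted glycoprotein of neurons. The locus chr15:95216225-95218132, in the annotated span of Nell2 but in none of its exons, stood at 29.2, 30.6 and 29.6 FPKM in the WT libraries and at 1.11, 1.22 and 0 in Gde2KO. All 3 WT libraries joined it to Nell2 and no Gde2KO library did. The log2 difference was -5.76 (SE 1.07, limma adjusted p = 0.690). Without the Gde2KO replicate listed at 0 it was -4.53 with an adjusted p of 4.74e-04, and leaving out any other library gave 0.522 to 0.970. The Gde2KO mean of 0.776 FPKM lay under the minimum mean of 1 FPKM. The locus was thus tested through WT values taken from joined Nell2 transcripts, and its p supports nothing.

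The host gene moved the other way. Nell2 read 26.9, 28.1 and 27.3 FPKM in WT and 56.9, 55.9 and 52.2 in Gde2KO, a log2 difference of 1.03 (SE 0.06, limma adjusted p = 0.0130), and was 1 of the 10 genes called. Its leading assembled transcript had 6482 to 6537 bases in WT, its last exon taking 3920 to 3984 of them. In Gde2KO it had 3093 to 3186, and the last exon took 531 to 601. The WT transcripts ended at 95216171 to 95216235 and those of Gde2KO at 95219554 to 95219624, on the minus strand, so the WT model covers the locus and the Gde2KO model stops before it.

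Counted as fragments, Nell2 did not separate. Its fragment total was 190.2, 200.2 and 194 in WT (195 ± 5.02, SD, n = 3) and 206, 202 and 193 in Gde2KO (200.3 ± 6.47, SD, n = 3). The ranges overlap. The differences in the gene's FPKM and in the locus both go with the length of the assembled model, and whether the RNA itself ends earlier in Gde2KO was not tested.

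**Figure D5:**
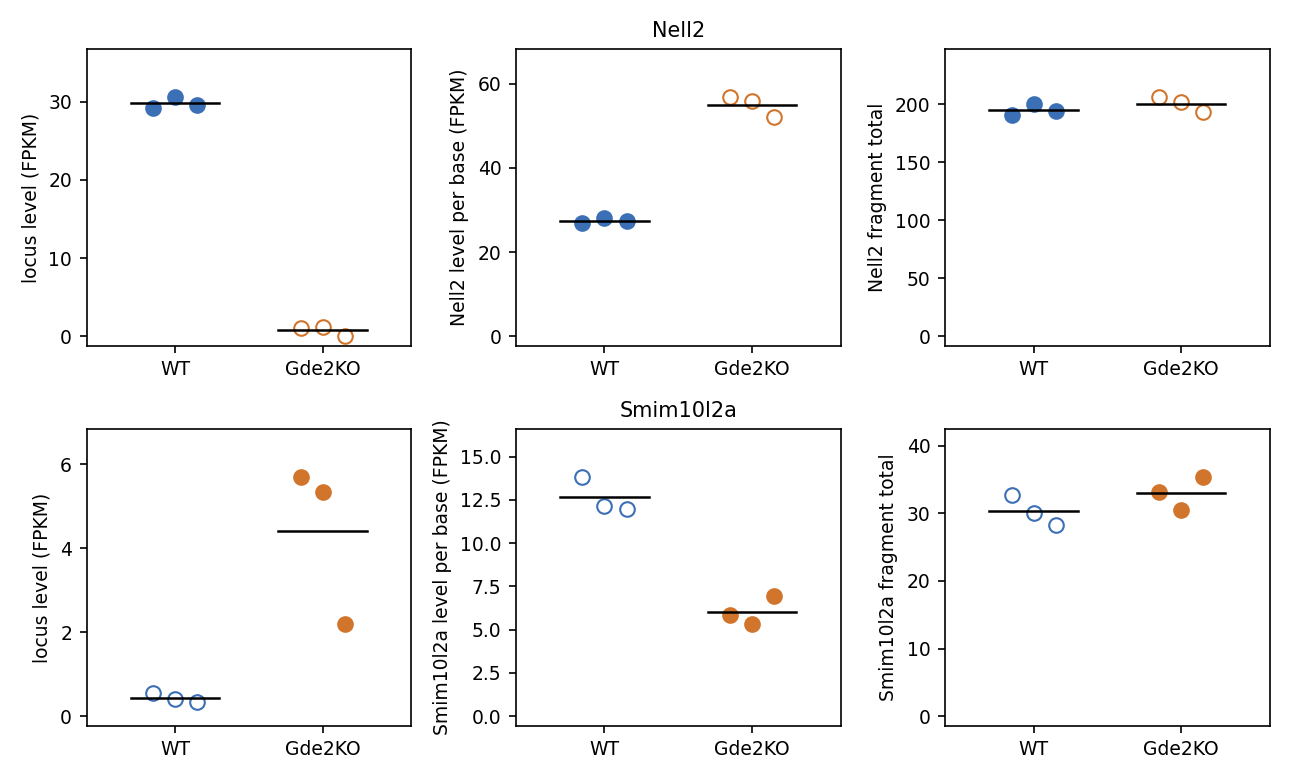
Level of the locus and of its gene (FPKM) and fragment total of the gene, for Nell2 and for Smim10l2a, 1 point per library, filled where the locus was joined and open where it was not, with a black bar at the mean of each genotype. Locus and gene FPKM separate the genotypes in opposite directions, and fragment totals overlap for both genes.

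At Smim10l2a, the gene of a small membrane protein, the pattern was the mirror image. The locus chrX:56379976-56381164, 2176 bases beyond the annotated end, stood at 0.545, 0.407 and 0.332 FPKM in the WT libraries and at 5.70, 5.34 and 2.18 in Gde2KO, where all 3 libraries joined it. The log2 difference was 3.03 (SE 0.41, limma adjusted p = 0.232). Without Gde2KO replicate 3 it was 3.47 with an adjusted p of 0.0285, and leaving out any other library gave 0.464 to 0.522. The locus met the minimum mean of 1 FPKM through its Gde2KO values alone, so its difference follows in part from that minimum and its p supports nothing. Its minus strand comes from short pieces in WT replicate 2, while the joining transcripts are on the plus strand of Smim10l2a.

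Smim10l2a itself read 13.8, 12.1 and 12 FPKM in WT and 5.83, 5.34 and 6.92 in Gde2KO, and did not pass the test. The assembled Smim10l2a transcript was 5112 to 5713 bases long in Gde2KO libraries, against 2171 to 2309 in WT libraries. The fragment total was 32.8, 30.1 and 28.3 in WT and 33.2, 30.5 and 35.4 in Gde2KO, and overlap. The plot of both genes puts locus, gene and fragments side by side.

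At Prr5 and Zbtb16 the locus and the fragment total of the gene were both higher in each Gde2KO library. Prr5 is a subunit of the growth kinase complex mTORC2. The locus 248 bases beyond its end, chr15:84703922-84706477, read 2.57, 1.99 and 1.65 FPKM in WT and 4.34, 3.93 and 3.86 in Gde2KO (log2 0.98, SE 0.16, limma adjusted p = 0.399). The Prr5 fragment total was 11.8, 11.6 and 12.1 in WT and 19.6, 18.1 and 17.5 in Gde2KO. Its FPKM overlapped, at 2.62, 6.73 and 7.02 in WT and 4.09, 3.81 and 3.88 in Gde2KO. WT replicate 1 and all Gde2KO libraries joined the locus. In these the Prr5 fragment total includes the locus, and in WT replicates 2 and 3 it does not. Locus and fragment total are therefore not independent, and the part of joining in the Prr5 gap was not tested.

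Zbtb16 encodes a zinc finger transcription factor. The locus 772 bases beyond its end, chr9:48651904-48653524, stood at 2.11, 2.38 and 2.15 FPKM in WT and 5.99, 3.79 and 9.89 in Gde2KO (log2 1.45, SE 0.34, limma adjusted p = 0.887; log2 0.52 with the plain sum of transcripts). The gene read 2.64, 2.62 and 2.53 in WT and 8.19, 4.0 and 9.63 in Gde2KO, and its fragment total was 18.4, 19.8 and 18.6 against 49.8, 29.2 and 75.9. Every library but Gde2KO replicate 1 joined it, so here both genotypes hold joined libraries, and neither locus passed the test.

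The other higher loci are spliced and intergenic. The locus chr12:21598498-21622531 has 4 exons over the RefSeq genes Gm18241 and Gm31624, 2228 bases beyond Gm4036, and read 1.17, 1.21 and 1.05 FPKM in WT and 2.21, 2.15 and 2.24 in Gde2KO. Its log2 difference was 0.92 (SE 0.10, limma adjusted p = 0.102). It was -0.58 when only outside transcripts were counted and -1.06 with a plain sum of transcripts, so its direction depended on how the level is formed. Gde2KO replicate 2 alone joined the locus and had no outside transcript there, so both alternatives put that library at 0. The level rests on 292 counted bases of 703 exonic bases. The highest outside transcript read 1.17, 2.17 and 1.75 FPKM in WT and 2.22, 0 and 2.31 in Gde2KO, so WT replicate 2 was near the other Gde2KO libraries.

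The locus chr2:174933128-174940691, with 4 exons on the minus strand over RefSeq Gm30591 and Gm40017, lies 66596 bases beyond Gm14616. It was found in all 6 libraries, never joined, and read 1.37, 1.21 and 0.932 FPKM in WT and 2.1, 2.1 and 1.96 in Gde2KO. No gene transcript ran over it in any library. Its highest outside transcript read 2.74, 0.988 and 0.936 FPKM in WT and 2.09 to 2.11 in Gde2KO, and those values overlap. The part of the assembly in the difference in level was not tested. That difference had a log2 of 0.81 (SE 0.15) and an adjusted p of 0.633 in limma, and kept its direction under each alternative run. Its size was smaller in some, a log2 of 0.32 (SE 0.36) with the plain sum of transcripts and 0.52 with a pseudocount of 1.

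Lower in Gde2KO by the smallest p was a short locus in an intron of Sv2b, a synaptic vesicle protein gene. The locus chr7:75258199-75258444 read 3.51, 5.74 and 2.94 FPKM in WT and was listed at 0 in the 3 Gde2KO libraries (limma adjusted p = 0.0959), so no fold is given. It was never joined, and Sv2b read 30.4 to 32.0 in WT and 30.9 to 36.2 in Gde2KO. It met the minimum level through its WT values alone, so its difference follows in part from that minimum and its p supports nothing. Over the alternatives the adjusted p ran from 0.00335, without the intensity trend and robust moderation, to 0.970, without WT replicate 1, and was 0.802 with the replicate block. A value of 0 can be a failed assembly.

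In an intron of Paqr3, which encodes a Golgi membrane protein, chr5:97093296-97094181 was never joined and read 4.27, 3.64 and 4.73 FPKM in WT and 1.44, 2.03 and 2.21 in Gde2KO. This gave a log2 difference of -1.10 (SE 0.19) with an adjusted p of 0.488 in limma. With all assembled bases in place of those found in at least 3 libraries, it was -0.50 with an adjusted p of 0.886. Paqr3 itself read 7.17, 8.65 and 6.64 in WT and 7.42, 7.5 and 6.56 in Gde2KO, which overlap. Of the lower loci, it is the one detected in all 6 libraries with no joining.

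Fhl1 encodes a LIM domain protein, and chrX:56731361-56731667 lies 119 bases before its annotated start. It read 23.0, 22.1 and 28.7 FPKM in WT and 2.58, 6.16 and 2.59 in Gde2KO (log2 -2.75, SE 0.37, limma adjusted p = 0.232). Joined to Fhl1 in the 3 WT libraries and Gde2KO replicate 2, it was highest among Gde2KO libraries in the joined one. Without that library the log2 was -3.16 and the limma adjusted p 0.00999. Leaving out any other library gave an adjusted p of 0.419 to 0.625. Without Gde2KO replicate 1, the library apart in sex-linked genes, the log2 differences of the 2 chromosome X loci were -2.55 at Fhl1 and 2.79 at Smim10l2a. The limma adjusted p values were then 0.424 and 0.464.

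The last named lower locus, chr4:46330293-46330646 in Gm12446, read 1.98, 1.92 and 2.15 FPKM in WT and 1.0, 0.496 and 0.773 in Gde2KO, where all 3 libraries joined it (log2 -1.32, SE 0.26, limma adjusted p = 0.755; log2 -4.45 with the plain sum of transcripts). The Gde2KO mean of 0.756 FPKM lay under the minimum mean of 1 FPKM, so the locus met that minimum through its WT values alone. Its difference follows in part from that minimum and its p supports nothing. The Gde2KO libraries had no outside transcript there, so the plain sum put them at 0. Here the joined genotype is the lower one, in contrast to Nell2.

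Joining itself split by genotype at few loci. A total of 7 loci were joined in all WT and no Gde2KO libraries, and 12 in all Gde2KO and no WT libraries. Of the 4 and 7 of these that were tested, 2 and 5 had genotypes that do not overlap, where 10.7% of all features tested do not. These loci were picked because joining split by genotype, and a joined locus takes the value of the gene's transcript. The selection thus favours separate genotypes, and the share says nothing about a change in RNA. One example, chosen after its values were seen, lies 1251 bases beyond Aff2: chrX:69869289-69872028 read 3.95, 3.71 and 3.67 FPKM in WT and, joined, 4.38, 4.18 and 4.32 in Gde2KO. When only outside transcripts were counted it was listed at 0 in Gde2KO and its adjusted p was 0.0488, although the level over the same bases differed by a log2 of 0.21.

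Counts of loci by presence also depended on joining. There were 23 loci assembled outside annotated exons in all WT and no Gde2KO libraries, but 6 of them were joined in every Gde2KO library, and 8 were listed at 0 there. In the reverse direction there were 8 loci, 0 of which were joined in all WT libraries and 3 of which were listed at 0.

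The number of loci assembled per library was 1428, 1480 and 1449 in WT (1452 ± 26.2, SD, n = 3) and 1392, 1409 and 1217 in Gde2KO (1339 ± 106, SD, n = 3). The WT libraries all lay higher, and a two-sided exact permutation test gave p = 0.1, the smallest that 3 against 3 can give. Gde2KO replicate 3, the library with 566 joined loci, was the lowest, and without it the difference went from -113 to -48.0 loci (exact p = 0.2).

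The summed level of the loci did not separate the genotypes, at 39063 ± 5073 FPKM in the WT libraries and 38767 ± 6937 in Gde2KO (SD, n = 3, exact permutation p = 1.0). Without the loci of 100 FPKM or more it was 3994 ± 209 and 4072 ± 48.4 (exact p = 0.5).

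Near Gdpd5, on chromosome 7 within 1 Mb of the disrupted gene, there were 3 loci. The locus chr7:98657450-98657931, 666 bases before the chromatin gene Emsy, read 2.18, 1.56 and 0.902 FPKM in WT and 5.21, 1.14 and 3.22 in Gde2KO. The locus chr7:99835232-99837298, 270 bases beyond Spcs2, a signal peptidase subunit gene, read 0.712 to 0.984 over the 6 libraries. The third, chr7:98697862-98699189 in Gm15506, read 0 to 0.921. The genotypes overlapped at each.

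Chromosome Y held 2 loci. The first, chrY:35977861-35978310, 2651 bases beyond Gm28470, read 4.68, 1.89 and 5.09 FPKM in WT and 0, 3.83 and 0 in Gde2KO. The second, chrY:90812349-90812818, was assembled in WT replicate 1 alone, at a transcript FPKM of 1.0. Reads at the first locus appeared in 4 libraries in which Ddx3y was listed at 0.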

How the data were processed

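Poly-A RNA of 3 WT and 3 Gde2KO libraries was sequenced, and the deposited files hold 1 assembly per library. Per the submitters' processing notes the tools were FastQC (version not given in the sources used here), TopHat2 2.1.1, Cufflinks 2.2.1 and Cuffdiff 2.2.1, with build mm10. Transcript FPKM values are stored as text inside the attribute field of the deposited files, so the authors' column as a whole has no single unit and is called "other". Counts, depth totals and strandedness are not given in the sources used here.

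Levels were formed per locus and per GENCODE vM21 gene as FPKM summed at each base, over transcripts of at least 200 bases, and averaged over bases assembled in at least 3 libraries. Bases under an exon of a gene on the other strand took only stranded transcripts. For tests and summed levels, libraries were divided by median-of-ratios factors of 0.983 to 1.03, and printed levels are not scaled. Log2 differences were fitted to log2(FPKM + 0.1) by limma 3.58.1 (R 4.3.3), with intensity trend and robust moderation, two-sided, Benjamini-Hochberg adjusted over all features, threshold 0.05, with no covariate. The pseudocount understates changes of low loci. Single values per library were compared by exact permutation in Python 3.11.15. The fit was tested on simulated data.

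Named loci are the 5 highest means in each of 4 classes, up to 5 per direction without overlap of genotypes by smallest p, the 5 with most exons, those near Gdpd5 and those on chromosome Y. One locus chosen by this rule, among the spliced intronic ones, is not reported here. For the sequences, promoter windows replaced the planned ends and starts of loci, since no genome sequence was used here. Members and lists were chosen with earlier results of these data known. Replicate numbers did not pair the libraries (correlations 0.03, 0.02 and -0.03).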

Additional observations from a re-analysis of the deposited data

How the results depend on the processing

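The number of loci was 5226 at a threshold of 0.5 FPKM and 983 at 2, and 2199 to 2764 under the other alternatives. The share beyond a gene end was 41.5% and 23.4% at these thresholds, 34.3% when exons of either strand excluded a transcript, and 28.4% and 35.9% with a gap of 5 and 20 kb. The count of loci called between genotypes was 1 with only outside transcripts, 1 with the plain sum, 2 with a pseudocount of 1, 3 with no filter, 1 at a mean of 0.5 FPKM, 2 with values of 0 as missing and 2 without trend and robust moderation. Leaving out 1 library gave 0 to 5 called loci, and the fit with the replicate block called 0, as did 7 further settings, 1 of which, never-joined loci alone, was chosen after seeing the data. The difference of summed levels turned to 2467 with all assembled bases, 440 with quantile normalization and 77.8 without loci of 100 FPKM or more (added after seeing the data), and ran from -3379 to 3460 when 1 library was left out. With the replicate block its exact p was 1.0, and that of the loci per library 0.25. The chr12:21598498-21622531 difference was -0.58 and -1.06 with only outside transcripts and with the plain sum. Both settings put Gde2KO replicate 2, which joined that locus, at 0, and no other cause was tested. Depth is unknown, and most loci rest on a few reads per base.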
